A study of Homo sapiens with 16 samples.

Results

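Histone variants made outside the replication-dependent histone clusters were followed in HMC3, a human microglial cell line, in cells labelled wild type and cells labelled METTL3 knockout. METTL3 is the catalytic subunit of the enzyme that writes N6-methyladenosine on RNA. The genes were taken by symbol and number 8 of the 60669 genes in the deposited tables: H2AX, H2AZ1, H2AZ2, H2AJ and MACROH2A1, which encode variants of histone H2A, H3-3A and H3-3B, which both encode histone H3.3, and the linker histone variant H1-10. The series holds 16 libraries. For 5 wild type and 5 knockout libraries, poly(A) RNA was amplified by Smart-seq2, and these are represented here by the authors' table of 1 comparison, which has no value for a single library. For 3 wild type and 3 knockout libraries, ribosomal RNA was removed and a directional kit was used, and these have a TPM value (a level per gene length, scaled to a fixed total) for each library. The labels name no treatment, no clone and no separate culture for the replicates, so the p-values measure only the spread between these samples, which may be technical.

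Most histones are made in S phase from clustered genes without introns, whose mRNAs end in a conserved stem-loop and carry no poly(A) tail. The replication-independent variants are instead made through the cell cycle, as a rule from polyadenylated mRNAs, and replace the canonical histones in nucleosomes. H2A.Z marks promoters and regulatory elements, H3.3 is placed in transcribed chromatin and at telomeres, H2A.X is phosphorylated around DNA breaks, and macroH2A carries a large extra domain and is found in repressed chromatin. H2AX is known as a mixed case, since its gene can give both a stem-loop mRNA and a polyadenylated mRNA.

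The 3′ ends of the annotated transcripts show which kind of message each gene can make. H2AX was the 1 gene of the 8 whose transcript held the histone stem-loop motif, searched on the transcript strand as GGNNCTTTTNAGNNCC. The motif was found in 59 of 19657 protein-coding genes (0.300%) and in 28 of 65 replication-dependent histone genes (43.1%). The H2AX match is shown with those of H4C2 and H4C5, which encode the canonical histone H4, with the motif in capitals:
H2AX stem-loop: ccacaaaGGCCCTTTTAAGGGCCaccaccg
H4C2 stem-loop: ttccaatGGCCCTTTTCAGGGCCgcccact
H4C5 stem-loop: aatcaaaGGCCCTTTTCAGGGCCgcccaca
The H2AX stretch lies on the minus strand at chr11:119094891-119094920 of GRCh38, and its motif begins at base 555 of a transcript of 1614 bases. The transcript therefore runs on for 1044 bases after the motif. This is not particular to H2AX, as the H4C5 transcript runs on for 1022 bases and that of H4C2 for 86.

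A poly(A) signal, the hexamer that directs cleavage and polyadenylation, was searched as AATAAA or ATTAAA in the last 50 bases of each coding transcript. It was present in at least 1 coding transcript of 7 of the 8 genes, MACROH2A1 being the exception. The share was 81.6% of protein-coding genes and 30.8% of the replication-dependent histone genes. The signal was in 1 of 8 coding transcripts of H2AZ2, 2 of 8 of H3-3B and 2 of 4 of H3-3A. The ends of the genes with the largest readouts below are shown with a hexamer in capitals, and the H3-3A stretch opens with another ATTAAA left in lower case:
H2AX signal: gactaattttATTAAAggattgtttttttt
H2AZ1 signal: ggataagttcAATAAAggtcatatcccaaa
H3-3B signal: atgagactaaAATAAAatttttgaagttaa
H1-10 signal: ttttgggcacAATAAAgcgtttaaaccttt
H3-3A signal: attaaaatacATTAAActat
Thus H2AX held both elements and H2AZ1, H3-3B, H1-10 and H3-3A held the signal alone. A match describes these letters in the annotation and was not tied to any read.

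Several properties of the libraries bear on every value that follows. Steps of the TPM values gave a depth of 266157 to 487270 reads for wild type and of 512626 to 1267171 reads for knockout libraries. Knockout libraries 1 and 2 differed by no more than sampling noise (chi-square test of their whole reads over 10120 genes, p = 0.06497), may be 1 library, and were averaged, so that 3 wild type samples stood against 2 knockout samples. METTL3 mRNA, which need not fall in a knockout, was at 29.4 ± 3.49 TPM (SD, n = 3) in wild type and 41.2 ± 2.21 TPM (SD, n = 2) in knockout samples, so knockout is used here as the label of a library. The median log2 change of all genes tested was 0.41, and over 20 bins of rising transcript GC content the median went from 1.26 to -0.55. Protein-coding genes held 60.7% to 63.6% of TPM in wild type and 75.8% to 77.3% in knockout libraries. The fibroblast or pericyte markers, of which LUM was at 0 throughout, summed to 10689 to 13142 TPM in wild type and 3122 to 3284 TPM in knockout libraries. Only 4 of these 7 markers had a mean of at least 1 TPM, and COL1A1 alone had a mean of 5744 TPM over both groups. Of 12 microglial markers, 8 were at 0 in all 6 libraries, including AIF1, CX3CR1, P2RY12 and TMEM119, and 2 had a mean of at least 1 TPM. The 12 summed to 47.0 to 67.3 TPM in wild type and 65.4 to 90.6 TPM in knockout libraries. The part of these differences in the results below was not tested, except where a value with the GC trend removed is given.

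In the rRNA-depleted RNA, H2AZ1 rose and H2AX fell, by 1.06 and 0.98 on the log2 scale of the deposited TPM. The sizes depend on scaling: with libraries scaled by median ratios they were 0.70 and -1.34, and with the GC trend removed 0.61 and -0.40. H3-3B fell slightly, and H3-3A was higher in knockout, from very few reads. By limma with Benjamini-Hochberg adjustment over all 14789 genes tested, 4 of the 8 genes passed 0.05, 2 higher and 2 lower. All 8 met the filter of at least 1 TPM in 3 libraries, but H3-3A met it only through the knockout libraries, where it is high, so its call is no support for a difference. Of the other 7 genes 3 passed, 1 higher and 2 lower. Among all genes 35.3% passed, 22.9% higher and 12.4% lower, so these counts are not far from the background. That split moves with the processing. With the GC trend removed 11.3% of all genes were higher and 15.2% lower (1664 and 2252 genes), and with median ratio scaling 16.0% and 16.9%. Rescaling to protein-coding TPM gave 2462 higher and 2344 lower genes, quantile normalization 2651 and 2442, and voom on recovered reads 3864 and 3509. The number of variants called was 4 with the GC trend removed, and 6 with median ratio scaling, protein-coding TPM or voom. Each of these counts includes H3-3A. The 4 with the GC trend removed were not the same genes, as MACROH2A1 passed and H2AX did not (limma, adjusted p = 0.00362 and 0.0511). Sample values of the groups did not overlap for 6 of the 8 genes, for 5 of the 7 without H3-3A, and for 62.7% of all genes. The median change of the 8 genes was 0.11 on the log2 scale, and -0.33 without H3-3A, against 0.41 for all genes.

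**Figure D1:**
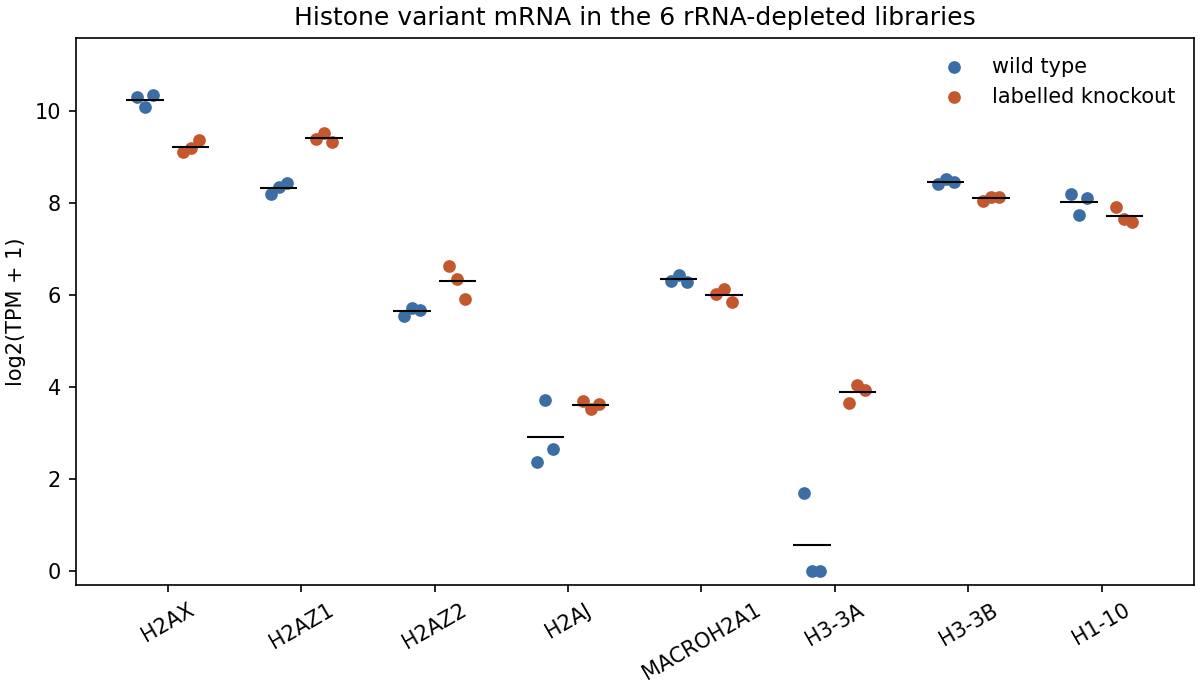
Level of each histone variant mRNA as log2(TPM + 1) in the 3 wild type (blue) and 3 knockout (orange) rRNA-depleted libraries, 1 point per library in the order of replicate numbers, with a black line at the mean of the 3 libraries. H2AX is the highest of the 8 in wild type at 1090 to 1302 TPM, and H2AZ1 and H2AX have overlapping levels in knockout.

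H2AX encodes H2A.X (ENSG00000188486, chromosome 11, 119093854 to 119095467, minus strand). Its level was 1268, 1090 and 1302 TPM in wild type and 554, 587 and 664 TPM in knockout libraries, given here and below in the order of replicates 1 to 3. All knockout libraries lay below all wild type libraries. The mean was 1220 ± 114 TPM (SD, n = 3) in wild type and 618 ± 66.0 TPM (SD, n = 2) in knockout, a wild type level 1.98 times the knockout level. The fitted log2 change was -0.98 (SE 0.13, 95% interval -1.31 to -0.65, limma with Benjamini-Hochberg adjustment, adjusted p = 0.00534). H2AX is rich in GC (66.4%), and genes of its GC bin had a median log2 change of -0.55. After removal of the GC trend the change was -0.40 and no longer passed (limma, adjusted p = 0.0511). It also missed the threshold without knockout library 3, which leaves 1 knockout sample whose spread is assumed to be that of the wild type (limma log2 change -1.09, adjusted p = 0.0530).

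H2AZ1 and H2AZ2 encode the closely related forms H2A.Z.1 and H2A.Z.2. H2AZ1 (ENSG00000164032, chromosome 4, 99948086 to 99950388, minus strand) stood at 295, 328 and 348 TPM in wild type and at 671, 739 and 642 TPM in knockout libraries. Every knockout library was well above every wild type library, on 73 to 134 reads in wild type and 229 to 621 reads in knockout. The mean was 324 ± 26.8 TPM (SD, n = 3) in wild type and 673 ± 44.3 TPM (SD, n = 2) in knockout, which is 2.08 times as high. The log2 change was 1.06 (SE 0.11, 95% interval 0.77 to 1.34, limma with Benjamini-Hochberg adjustment, adjusted p = 0.00323), or 0.64 above the median of all genes. Genes of its GC bin had a median of 0.46. H2AZ1 passed under all 16 alternative settings run, with a log2 change of 0.61 to 1.12.

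H2AZ2 (ENSG00000105968, chromosome 7, 44826791 to 44848083, minus strand) was at 46.2, 52.3 and 50.4 TPM in wild type and 98.1, 81.3 and 59.8 TPM in knockout libraries. The groups did not overlap, but the knockout libraries were widely spread. The log2 change of 0.55 (SE 0.21, 95% interval 0.02 to 1.08) did not pass (limma with Benjamini-Hochberg adjustment, adjusted p = 0.0968), and was below the 0.91 of genes with like GC content. Its sign turned to -0.33 after removal of the GC trend (limma, adjusted p = 0.241), and with the 6 libraries taken as separate samples the change of 0.65 passed (limma, adjusted p = 0.0322). Within a library, the log2 ratio of H2AZ1 to H2AZ2 was 2.68 ± 0.074 (SD, n = 3) in wild type and 3.18 ± 0.313 (SD, n = 2) in knockout samples, a difference of 0.50. Knockout library 1, at 2.76, lay inside the wild type range of 2.63 to 2.76, and without knockout library 3 the difference was 0.28. A two-sided exact permutation test gave p = 0.2, which is the smallest p that 3 samples against 2 allow, and 0.2 after adjustment over the 3 pairs of genes compared this way.

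H2AJ encodes H2A.J, a variant reported to accumulate in senescent fibroblasts. The gene (ENSG00000246705, chromosome 12, 14774383 to 14778002, plus strand) was at 4.22, 12.3 and 5.35 TPM in wild type and 12, 10.6 and 11.5 TPM in knockout libraries. Wild type library 2 was as high as the knockout libraries, so the groups overlapped, and each value rested on 2 to 13 reads. The log2 change of 0.71 (SE 0.52, 95% interval -0.61 to 2.02) did not pass (limma with Benjamini-Hochberg adjustment, adjusted p = 0.342). The interval spans 0, so neither direction was resolved, and with the GC trend removed the value was -0.17 (limma, adjusted p = 0.848).

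MACROH2A1 (ENSG00000113648, chromosome 5, 135333900 to 135399914, minus strand) was at 78.7, 85.8 and 77.0 TPM in wild type and 64.3, 69.8 and 57.2 TPM in knockout libraries. The groups did not overlap. Its log2 change of -0.37 (SE 0.14, 95% interval -0.72 to -0.02) missed the threshold (limma with Benjamini-Hochberg adjustment, adjusted p = 0.0935), although genes of its GC bin had a median of 0.92. It passed with the GC trend removed (limma log2 change -1.24, adjusted p = 0.00362) and with libraries scaled by median ratios (limma log2 change -0.72, adjusted p = 0.0148). Its paralog MACROH2A2, which encodes the other macroH2A, fell in the same libraries, being at 35.9 ± 5.79 TPM (SD, n = 3) in wild type and 7.89 ± 2.68 TPM (SD, n = 2) in knockout samples, on 3 to 10 reads per library (limma log2 change -2.08, SE 0.30, adjusted p = 0.00691). The log2 ratio of MACROH2A1 to MACROH2A2 was 1.15 ± 0.153 (SD, n = 3) in wild type and 2.86 ± 0.601 (SD, n = 2) in knockout samples (two-sided exact permutation test, p = 0.2, the smallest possible). That difference of 1.70 became 0.87 with the GC trend removed.

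H3-3B and H3-3A encode the same H3.3 protein from separate genes. H3-3B (ENSG00000132475, chromosome 17, 75776434 to 75785893, minus strand) was at 341, 369 and 352 TPM in wild type and 264, 281 and 281 TPM in knockout libraries. All knockout libraries lay below all wild type libraries. The mean was 354 ± 14.5 TPM (SD, n = 3) in wild type and 277 ± 5.96 TPM (SD, n = 2) in knockout. This gave a log2 change of -0.35 (SE 0.09, 95% interval -0.58 to -0.12, limma with Benjamini-Hochberg adjustment, adjusted p = 0.0348). The call was lost under 7 of 16 alternatives, among them each of the 3 fits without 1 wild type library (adjusted p = 0.0638 to 0.0675) and the fit without knockout library 3 (adjusted p = 0.10). The direction was the same under all 16.

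H3-3A (ENSG00000163041, chromosome 1, 226061851 to 226072001, plus strand) was at 2.25 TPM in wild type library 1 and listed at 0 in libraries 2 and 3, against 11.7, 15.7 and 14.4 TPM in knockout libraries. These values rest on 1 read over the 3 wild type libraries and 36 reads over the 3 knockout libraries. The depth-scaled ratio was 17.8, with an exact 95% interval of 3.0 to 723 that covers counting error only. The fitted log2 change was 3.34 (SE 0.68, 95% interval 1.63 to 5.05, limma with Benjamini-Hochberg adjustment, adjusted p = 0.0173), a value that depends on the pseudocount and comes from a gene that entered the fit through its knockout libraries. It missed the threshold with a pseudocount of 0.1 (limma log2 change 5.62, adjusted p = 0.0625) and without knockout library 3 (limma log2 change 3.31, adjusted p = 0.132). H3-3A has many processed pseudogenes, and the table lists 47 H3 pseudogene rows, of which 4 were above 0 with at most 4 reads in a library. How reads shared with such copies were counted is not given in the sources used here, so the level of H3-3A is uncertain. The log2 ratio of H3-3A to H3-3B was -4.38, -4.08 and -4.20 in the knockout libraries and -6.72 in wild type library 1, on its 1 read. In wild type libraries 2 and 3 it is set by the pseudocount, so no mean is given. The difference between genotypes moved from 3.70 with a pseudocount of 1 to 5.98 with 0.1 (two-sided exact permutation test with a pseudocount of 1, p = 0.2, the smallest possible).

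H1-10, the gene of the linker histone variant H1.10 (ENSG00000184897, chromosome 3, 129314771 to 129316277, minus strand), was at 296, 213 and 278 TPM in wild type and 240, 202 and 193 TPM in knockout libraries. Wild type library 2 lay inside the range of the knockout libraries. The log2 change of -0.33 (SE 0.17, 95% interval -0.77 to 0.11) did not pass (limma with Benjamini-Hochberg adjustment, adjusted p = 0.199). The gene is the richest in GC of the 8 (68.6%), and with the GC trend removed its change was 0.25 (limma, adjusted p = 0.289), whereas scaling by median ratios gave -0.68 and a pass (limma, adjusted p = 0.0245). It also passed without wild type library 2 (limma log2 change -0.47, adjusted p = 0.0469).

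**Figure D2:**
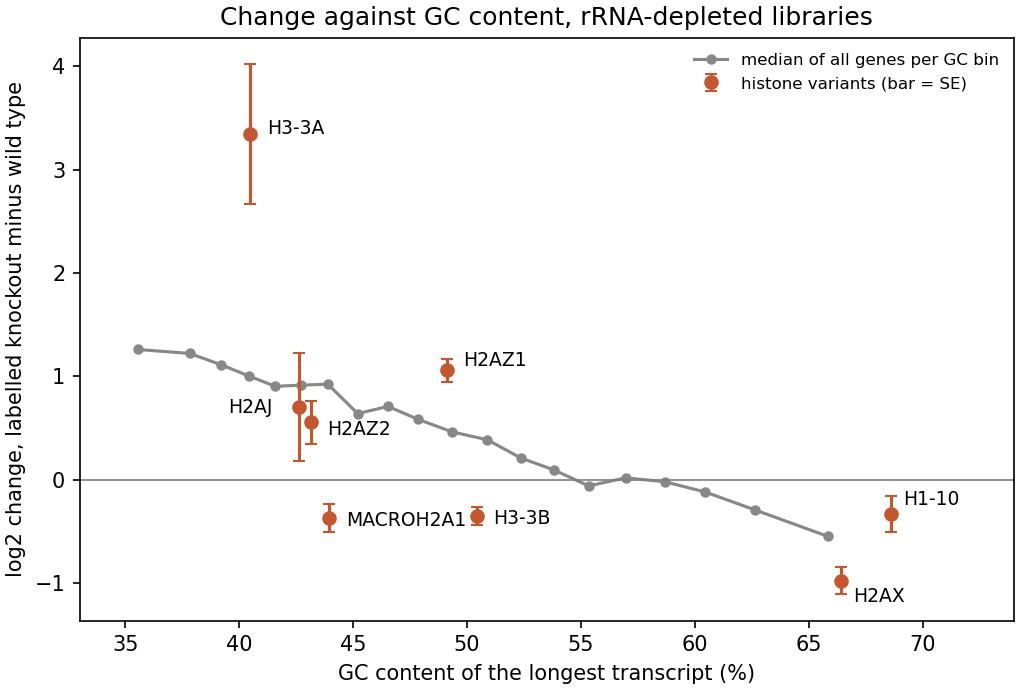
Log2 change between knockout and wild type samples (vertical axis, bar = SE) against the GC content of the longest transcript (horizontal axis, %) for the 8 histone variants, with the median of all genes in each of 20 GC bins (grey line). H2AZ1 and H3-3A lie above the line, MACROH2A1 and H3-3B below it, and H2AX and H1-10 at its GC-rich end, where the median is -0.55.

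These changes altered the order of the levels, which are per gene length, with the length taken as the union of exons. In wild type libraries H2AX was highest. H3-3B, H2AZ1 and H1-10 followed with ranges that overlapped from 1 to the next, then MACROH2A1, H2AZ2, H2AJ and H3-3A in separate ranges. In knockout libraries H2AZ1 and H2AX led with overlapping ranges, ahead of H3-3B and H1-10. H2AZ2 and MACROH2A1 overlapped below them, as did H3-3A and H2AJ at the bottom. The 8 genes summed to 2151 to 2413 TPM in wild type and 1916 to 1986 TPM in knockout libraries. H2AX made up 50.7% to 54.4% of that sum in wild type and 28.9% to 34.5% in knockout libraries, and H2AZ1 made up 12.7% to 15.3% and 33.4% to 37.2%. H3-3B made up 14.6% to 17.2% in wild type and 13.8% to 14.6% in knockout libraries, ranges that overlapped slightly. MACROH2A1 has a union of exons of 17730 bases, the longest of the 8, which lowers its TPM if the cells use shorter transcripts.

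The poly(A) libraries gave another picture. All 8 genes had a log2 fold change below 0 in the authors' deposited table, with a median of -0.29 against 0.02 for all genes. That comparison also ran with GC content, the median of all genes being 0.14 in the lowest of 20 bins and -0.17 in the highest. The table does not name its numerator, and a positive value is read here as a higher level in knockout, after the name of the table. In the other reading each direction taken from it would be opposite. The authors' adjusted p was under 0.05 for 2 of the 8 genes, both lower, where 19.9% of all 14009 genes passed, 9.55% higher and 10.3% lower. In the authors' deposited table H2AZ1 had a mean normalized count of 1887 and fell by 0.29 on the log2 scale (SE 0.10, adjusted p = 0.0281). H3-3A, at a mean normalized count of 19.7 in the authors' deposited table, fell by 0.81 (SE 0.26, adjusted p = 0.0126). H2AZ1 therefore had opposite directions in the 2 library types. The signs of H3-3A were opposite as well. Its rRNA-depleted value rests on 1 wild type read and a filter met only through knockout libraries, so no contrast is drawn from it. The difference between the types was not tested, because the poly(A) libraries have no values for single libraries.

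For the other 6 genes the authors' deposited table gave no call. H2AX had a log2 fold change of -0.18 (SE 0.26, adjusted p = 0.709) on a mean normalized count of 21.9 in the authors' deposited table. Genes of its GC bin had a median of -0.17 there. H2AZ2, with -0.31 (SE 0.13, adjusted p = 0.0699) in the authors' deposited table, came nearest to the threshold. The best measured gene, H3-3B, with a mean normalized count of 3087 in the authors' deposited table, changed by -0.07 (SE 0.05, adjusted p = 0.364), and the 95% interval was -0.18 to 0.03. MACROH2A1 was at -0.02 (SE 0.06, adjusted p = 0.894) in the authors' deposited table. H1-10 and H2AJ had the lowest mean normalized counts of the 8, 3.57 and 11.7 in the authors' deposited table, and wide errors, with -1.50 (SE 0.75, adjusted p = 0.157) and -0.30 (SE 0.37, adjusted p = 0.639). Of the 8 genes, 4 had opposite signs in the 2 library types, H2AZ1, H2AZ2, H2AJ and H3-3A, and 42.5% of 12498 genes with both values did so. MACROH2A2 was lower in both types, at -1.85 (adjusted p = 1.13e-07) in the authors' deposited table.

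**Figure D3:**
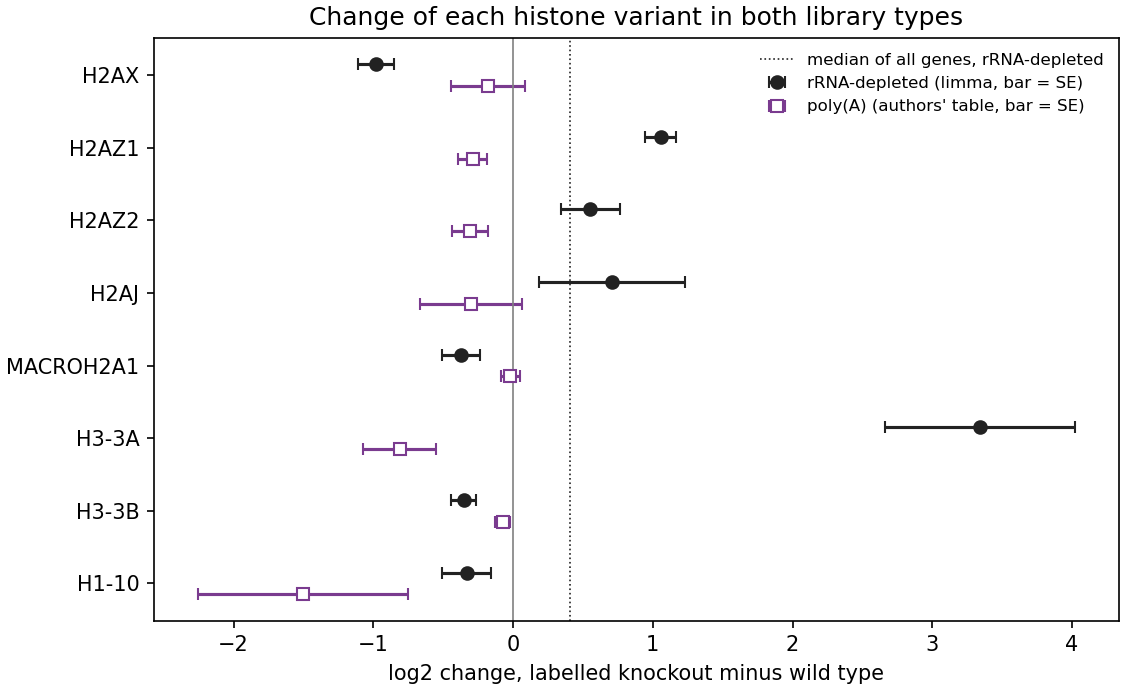
Log2 change between knockout and wild type (horizontal axis) for each histone variant in the rRNA-depleted libraries (filled circles, limma) and in the authors' deposited poly(A) table (open squares), with bars of 1 SE and a dotted line at the rRNA-depleted median of all genes, 0.41. The poly(A) values are all below 0, while the rRNA-depleted values run from -0.98 for H2AX to 3.34 for H3-3A.

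The level of the genes in the poly(A) libraries was next set against their level in the rRNA-depleted libraries. The authors' mean normalized count was divided by gene length, rescaled to the same total as TPM and set against mean TPM, for 6038 protein-coding genes of at least 20 TPM, 6 of the 8 variants among them. The median log2 ratio of all these genes was -0.28. H2AZ1 had a ratio of 1.76 (percentile 91.1) and H3-3B 1.71 (percentile 90.6), near the top. H2AZ2 (0.28, percentile 62.1) and MACROH2A1 (-0.12, percentile 53.1) were in the middle. H2AX was at -5.03 (percentile 2.80) and H1-10 at -5.56 (percentile 1.81), near the bottom. The replication-dependent histone genes, 51 of which were measured, had a median ratio of -6.24, at percentile 1.16.

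H2AX, the gene with the stem-loop printed above, and H1-10, which has none, were thus both scarce in the poly(A) libraries for their TPM. Both are rich in GC, and 357 genes with a GC content of 64% to 71% had a median ratio of -3.15, at percentile 12.1. The ratio of both genes was lower than that median, and the separate parts of the 3′ end and of GC content were not tested. The levels compare different library kits, so only ranks among genes are read from them. The poly(A) fold changes of H2AX and H1-10 rest on low counts.

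**Figure D4:**
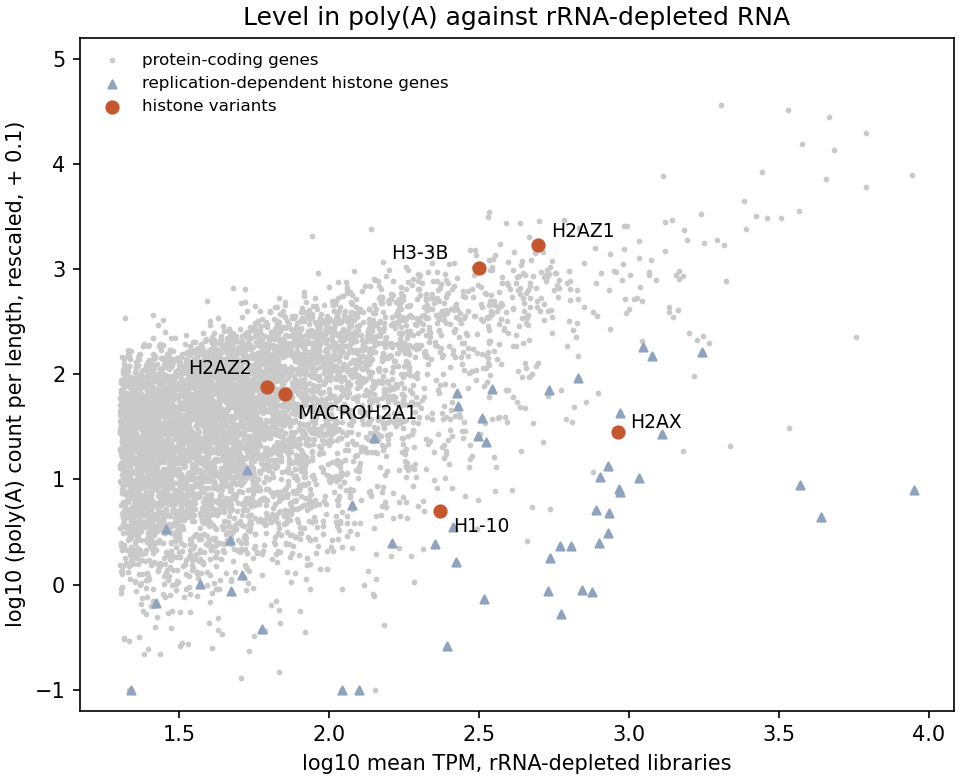
Level of each protein-coding gene of at least 20 TPM in the poly(A) libraries (vertical axis, log10 of the authors' mean normalized count per length, rescaled to the total of TPM, plus 0.1) against the rRNA-depleted libraries (horizontal axis, log10 mean TPM), with histone variants in orange and replication-dependent histone genes as triangles. H2AZ1 and H3-3B lie in the upper part of the cloud (percentiles 91.1 and 90.6 of the ratio). H2AX and H1-10 lie in its lower part (percentiles 2.80 and 1.81), toward the triangles.

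The other genes of histone variant biology were described by lists, with medians on the log2 scale beside the 0.41 of all genes. Of 31 chaperones and exchange factors, which load and remove H3.3, H2A.Z and other histones, 13 were higher and 3 lower by limma. The remaining 15 did not pass, and the median of the list was 0.72. Among all genes 22.9% were higher and 12.4% lower. ANP32E, which removes H2A.Z from nucleosomes, fell from 301 ± 37.0 TPM (SD, n = 3 here and for the other wild type means below) to 88.1 ± 18.1 TPM (SD, n = 2, likewise). ANP32E was also lower in the authors' deposited table (log2 fold change -0.46, adjusted p = 1.43e-05). ZNHIT1, a subunit of the SRCAP complex that deposits H2A.Z, fell from 70.4 ± 12.8 to 38.9 ± 8.59 TPM, and was at -0.42 (adjusted p = 0.0160) in the authors' deposited table. ASF1A, a chaperone of H3 and H4, rose from 0.793 ± 1.37 to 27.7 ± 6.55 TPM on 0 to 35 reads per library, and met the filter only through the knockout libraries. INO80, the ATPase of a remodeller that acts on H2A.Z nucleosomes, rose from 9.58 ± 5.79 to 46.3 ± 2.23 TPM, and missed the threshold with the GC trend removed (limma, adjusted p = 0.0581). The chaperone list held 6 higher and 5 lower genes with the GC trend removed, where 11.3% of all genes were higher and 15.2% lower. In the authors' deposited table it held 3 higher and 4 lower ones, where 9.55% of all genes were higher and 10.3% lower. ASF1A and INO80 had no call there (log2 fold changes 0.19 and 0.45, adjusted p = 0.407 and 0.331).

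Among 12 kinases, phosphatases and readers of phosphorylated H2A.X and partners, 6 were higher and 1 lower by limma, with a median of 0.65. The shares of all genes were 22.9% higher and 12.4% lower. WRNIP1, which takes part in the response to stalled forks, was the lower one, from 214 ± 51.2 to 58.5 ± 6.74 TPM. PPP6C, a phosphatase subunit, rose from 13.5 ± 2.36 to 76.6 ± 21.9 TPM, and ATR, a kinase that phosphorylates H2A.X under replication stress, from 6.07 ± 2.87 to 23.8 ± 4.39 TPM. After removal of the GC trend 3 were higher and 4 lower, where 11.3% and 15.2% of all genes were. ATR then no longer passed (limma, adjusted p = 0.189). The authors' deposited table had 4 of the 12 genes higher and 1 lower, where 9.55% of all genes were higher and 10.3% lower. WRNIP1, PPP6C and ATR had no call there (log2 fold changes -0.12, -0.08 and 0.16, adjusted p = 0.858, 0.578 and 0.607).

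Of the other histone variants outside the clusters, 3 were tested and 2 passed, where 35.3% of all genes passed. CENPA, the H3 variant of centromeres, rose from 33.6 ± 17.5 to 107 ± 3.46 TPM, and MACROH2A2 fell as given above. CENPA, without the GC trend, missed the threshold (limma, adjusted p = 0.0822). It had a negative value and no call in the authors' deposited table (log2 fold change -0.19, adjusted p = 0.547).

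The replication-dependent histone genes, 52 of 65 tested, had a median of 1.35. By limma 31 of them were higher and 9 lower, where 22.9% and 12.4% of all genes were. With the GC trend removed 28 were higher and 9 lower, with a median of 1.21, where 11.3% and 15.2% of all genes were. Yet the summed level of these histone genes was 43028 to 44792 TPM in wild type and only 36862 to 39138 TPM in knockout libraries. H4C2 carried much of that sum, at 16155 ± 498 TPM in wild type and 1726 ± 291 TPM in knockout samples. H2BC11 rose from 42.6 ± 32.1 to 496 ± 19.1 TPM, and narrowly missed the threshold with the GC trend removed (limma, adjusted p = 0.0525). H4C12 was listed at 0 in the wild type libraries and at 119 ± 36.2 TPM in knockout samples on at most 14 reads, and H2AC14 was at 43.6 ± 25.7 TPM in wild type on at most 4 reads and listed at 0 in knockout. Each of these last genes met the filter only through the group where it is high. These genes are short and alike in sequence, so reads can be split between copies. An adjusted p was given for 33 of them in the authors' deposited table, where 1 was higher and 3 lower, with a median of -0.21. Of all genes 9.55% were higher there and 10.3% lower. H4C2 and H2BC11 had no call there (log2 fold changes 0.0068 and 0.24, adjusted p = 0.998 and 0.563). Their mean normalized counts were 1.66 and 22.9.

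Factors of histone mRNA 3′ ends numbered 15, of which 7 were higher and 2 lower by limma, with a median of 1.12. Among all genes the shares were 22.9% and 12.4%. SLBP, which binds the histone stem-loop, fell from 278 ± 38.3 to 181 ± 12.2 TPM, whereas the authors' deposited table gave it a log2 fold change of 1.10 (adjusted p = 0.0478). SYMPK, a scaffold of the cleavage complex, fell from 56.0 ± 3.89 to 38.5 ± 0.573 TPM. NPAT, which activates histone transcription, rose from 5.85 ± 2.25 to 44.7 ± 10.7 TPM, and LSM10, part of the U7 particle that trims histone mRNA, from 9.10 ± 4.93 to 35.4 ± 1.27 TPM on 1 to 25 reads. Without the GC trend 2 factors were higher and 1 lower, where 11.3% and 15.2% of all genes were. NPAT (limma, adjusted p = 0.0540) and SYMPK (limma, adjusted p = 0.0646) then no longer passed. In the authors' deposited table SYMPK, NPAT and LSM10 had no call (log2 fold changes 0.28, 0.23 and -0.38, adjusted p = 0.265, 0.259 and 0.0929).

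Proliferation markers were examined because H2AZ1 and H2AX levels are known to follow proliferation. By limma 9 of 12 were higher and 1 was lower, with a median of 1.06, where 22.9% and 12.4% of all genes were. With the GC trend removed, where 11.3% of all genes were higher and 15.2% lower, 3 markers were higher and 2 lower. Their summed level was 1646 to 1830 TPM in wild type and 2635 to 2964 TPM in knockout libraries. CCNE2 rose from 3.67 ± 1.60 to 31.0 ± 10.2 TPM and CDK1 from 21.9 ± 17.0 to 121 ± 10.3 TPM, and both lost their call with the GC trend removed (limma, adjusted p = 0.0708 and 0.107). MCM2, a subunit of the replicative helicase, instead fell from 460 ± 27.2 to 191 ± 5.87 TPM. MCM2 was also lower in the authors' deposited table (log2 fold change -0.40, adjusted p = 5.17e-05), where 2 of the 12 markers were higher and 4 lower, with a median of -0.02. Of all genes 9.55% were higher there and 10.3% lower. CCNE2 and CDK1 had no call there (log2 fold changes -0.008 and 0.12, adjusted p = 0.979 and 0.214). The part of proliferation in the change of H2AZ1 and H2AX was not tested.

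The 5-base sequence GGACT, a form of the motif at which METTL3 methylates RNA, was counted in the longest transcript of each gene. H2AX held 1.86 per kilobase, H2AZ1 1.60 and MACROH2A1 0.364, with the other genes between, and the median protein-coding gene held 0.928. A count of letters does not say that a site is methylated.

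For each variant, the genes whose profile over the 6 rRNA-depleted libraries was nearest were found by the root mean square difference of centred log2(TPM + 1). H2AX was nearest to SLC9A3R1 (0.048) and NECAB3 (0.059), and H2AZ1 to SF1 (0.063) and WASF2 (0.064). H3-3B was nearest to LPCAT1 (0.035) and WDR5 (0.041), MACROH2A1 to CANT1 (0.056) and USP5 (0.062), and H1-10 to COLGALT1 (0.072) and TRIB3 (0.081). H2AZ2 was nearest to ZNF428 (0.097) and DNMBP (0.099). The 2 genes of lowest level were matched less closely, H2AJ by PDHB (0.13) and MAPK3 (0.17) and H3-3A by BRK1 (0.21) and RPL27 (0.25). The 6 libraries share the difference between genotypes, so a likeness of profiles is mostly a like size of change.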

How the data were processed

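The submitters' processing notes name Trimmomatic, STAR, DESeq2 and hg38, without versions or roles. The counting tool, annotation and use of strand are not given in the sources used here. The authors deposited TPM per gene for each rRNA-depleted library. The poly(A) table that the authors deposited holds, per the file headers, a mean normalized count (a signal averaged over libraries), the log2 fold change, its standard error, and a p-value before and after adjustment. That table was described and not retested, in place of the count fit foreseen.

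Positions, union-of-exon lengths, GC content and transcript sequences were those of GENCODE 29 on GRCh38, where 56927 of 60669 genes (93.8%) were found. Reads were recovered from TPM and length, and 90.9% of values above 0 were whole to within 0.02 reads. TPM were tested on log2(TPM + 1), a scale that understates changes of low genes, with limma 3.58.1 in R 4.3.3 (lmFit, eBayes with trend), a minimum of 1 TPM in 3 or more libraries and Benjamini-Hochberg adjustment at 0.05. The GC trend was removed by subtracting, in each library, the trend over 20 bins of transcript GC content. The limma step was tested on simulated data. Other steps used Python 3.11.15 with scipy 1.17.1. Intervals of reads cover counting error only.

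The 8 genes, the lists and the tests were chosen with earlier results of these data known. Genes of a list were named by rule, as the 2 highest and 2 lowest log2 changes past the threshold. Alternatives were another pseudocount, no filter, other scalings, the GC trend removed, voom on recovered reads, 6 separate libraries with and without a replicate block, each library left out, and a stricter threshold. H2AZ1, H3-3A, H1-10, H3-3B and MACROH2A1 overlap or adjoin an antisense or other gene in the annotation, and without stated use of strand their reads cannot be told apart.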

Additional observations from a re-analysis of the deposited data

How the results depend on the processing

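In the rRNA-depleted libraries 5220 genes passed, and 1663 to 5185 with 1 library left out. A threshold of 0.01 left 2242 genes and 2 of the histone variants, where 4 had passed, and with 1 library left out 1 to 4 variants passed. The count of variants was 5 with 6 libraries separate, where 6880 genes passed. It was 3 with no filter, a pseudocount of 0.1 or quantile normalization, where 4415, 4629 and 5093 genes passed. H3-3A was among the variants called in each of these settings except the pseudocount of 0.1. The lowest counts came without knockout library 3. With the GC trend removed H2AZ2 (-0.33), H2AJ (-0.17) and H1-10 (0.25) changed sign. The log2 difference between genotypes in the ratio of H2AZ1 to H2AZ2 became 0.94 and that of MACROH2A1 to MACROH2A2 0.87 with the GC trend removed, and that of H3-3A to H3-3B became 5.98 with a pseudocount of 0.1. The authors' deposited table had 1811 genes past 0.01 and 647 past 0.05 with a log2 fold change of 1 or more in size, and 0 of the histone variants passed either. Same-numbered libraries did not deviate together (correlations 0.020, -0.020 and 0.0082), and a fit of 6 libraries with the replicate block called 6037 genes and 4 variants. The cause of these shifts was not tested. Depth limits H3-3A and H2AJ most, at no more than 18 reads per library.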
